A study of Mus musculus with 8 samples.

Results

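The genes described here are 34 members of the integrated stress response and of the amino acid supply it serves: the ATF4 axis, the enzymes of serine, proline, asparagine, cysteine and one-carbon metabolism, and the amino acid transporters. They were chosen by symbol, with earlier results of these data known. All 34 were found among the 24411 genes of the count tables, and all 34 were among the 12517 genes with enough counts to be tested. RNA sequencing of polyadenylated RNA was done in A223 cells, which derive from a squamous cell carcinoma of the mouse. The 8 libraries form 4 groups of 2 replicates: PRDX6 knockdown (KD) cells after 18 h of 100 nM largazole, parental cells after 18 h of 100 nM largazole, KD cells in DMSO at 0 h, and parental cells in DMSO at 0 h. Largazole inhibits class I histone deacetylases, and PRDX6 is an antioxidant enzyme of the peroxiredoxin family that repairs oxidised phospholipids. Drug and time changed together in both largazole comparisons. The control for knockdown was the parental line (a non-targeting construct was not analysed here), and the labels give neither the knockdown method nor whether the KD cells are 1 clone. Separate cultures are not stated for the replicates, so that the p-values reflect how far these libraries differ among themselves, which may be technical.

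In the integrated stress response, kinases that sense misfolded protein in the endoplasmic reticulum (PERK, encoded by Eif2ak3), missing amino acids (GCN2, encoded by Eif2ak4) or other stresses phosphorylate the translation initiation factor eIF2alpha. Most protein synthesis then slows, while the mRNA of the transcription factor ATF4 is translated better. ATF4 binds DNA with C/EBP partners and raises genes that import amino acids and make serine, glycine, asparagine and proline, and, under prolonged stress, genes of cell death. Because ATF4 is controlled largely at translation, its mRNA level is an incomplete readout of its activity. The same transporters and enzymes supply the cysteine and glycine of glutathione and the one-carbon units of nucleotide synthesis, which growing carcinoma cells use heavily.

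Total estimated counts per library lay between 13020492 and 15613216. Levels are given in CPM, counts scaled to library size after trimmed-mean (TMM) normalization. The knockdown target Prdx6 stood at 81.1 and 64.9 CPM in largazole-treated KD, 257 and 233 CPM in largazole-treated parental, 86.6 and 79.2 CPM in DMSO KD and 297 and 283 CPM in DMSO parental libraries, so that all 4 KD libraries lay below all 4 parental ones. The precursor of ribosomal RNA, Rn45s, was uneven within 3 of the groups, at 23915 and 742 CPM in largazole-treated KD, 7739 and 949.8 CPM in largazole-treated parental, 9963 and 2549 CPM in DMSO KD and 1353 and 1212 CPM in DMSO parental libraries. The spread between replicates, as the SD of the log2 difference over the 10184 genes that averaged 5 CPM or more, was 0.369 in KD largazole, against 0.194 to 0.218 in the other groups. Of 10 squamous epithelial markers, Krt8, Krt18, Itga6 and Itgb4 were abundant, while Krt5, Krt6a, Krt14, Trp63, Epcam and Cdh1 stood at or near 0 in DMSO libraries of both genotypes. Krt5, Krt6a, Krt14 and Trp63 thus did not bear out the labelled squamous type in DMSO. Krt8 alone averaged 2225 CPM in KD and 1972 CPM in parental DMSO libraries, most of the summed level of the 10 given below. Fibroblast markers were also abundant, with Col1a1 at 1656 and 1675 CPM in KD cells and 1185 and 1177 CPM in parental cells in DMSO. The 6 fibroblast markers summed to 3545 to 4059 CPM in largazole-treated KD, 3177 to 3239 CPM in largazole-treated parental, 3926 to 4002 CPM in DMSO KD and 2884 to 2891 CPM in DMSO parental libraries, with Lum at or near 0 in all of them. The 10 squamous markers summed to 1765 to 1967, 1621 to 1706, 2656 to 2732 and 2484 to 2624 CPM in the groups in that order. Of 6 leukocyte markers, Cd3e, Cd79a, Ptprc and Lyz2 were at or near 0. The macrophage marker Cd68 stood at 47.5 and 41.1 CPM in largazole-treated KD, 62.1 and 61.5 CPM in largazole-treated parental, 4.35 and 4.42 CPM in DMSO KD and 3.92 and 4.39 CPM in DMSO parental libraries. Its 4 largazole libraries lay above its 4 DMSO ones. The monocyte marker Cd14 stood at 21 and 13.7 CPM in largazole-treated KD, 11.2 and 11.9 CPM in largazole-treated parental, 48.3 and 48.5 CPM in DMSO KD and 36.1 and 37.0 CPM in DMSO parental libraries, and its largazole libraries lay below its DMSO ones. The 6 summed to 55.5 to 69.4 CPM in largazole-treated KD, 74.1 to 74.4 CPM in largazole-treated parental, 52.7 to 52.9 CPM in DMSO KD and 40.0 to 41.4 CPM in DMSO parental libraries. The part of these markers in the results below was not tested.

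Promoter sequences are shown first, since ATF4 and its C/EBP partners are known to act through a composite DNA element. The element was searched as TGATGNAA on both strands in the 250 bases before each RefSeq transcription start (GRCm38.p6). Sequences were matched for 29 members; Cth, Eif4ebp1, Slc1a5, Slc7a3 and Slc7a5 had no entry. The element was found for 5 of the 29 members (17.2%), against 2.51% of the 9523 tested genes in the table and 3.91% of all 27025 genes in it. A match is a description of letters, not of binding. The stretches around the 5 matches follow on the gene's strand, 5′ to 3′, with the element in capitals. Chac1 and Pycr1 are shown with 80 bases, and the others with 30, because they overlap annotated exons.
Chac1, chr2:119351013-119351092, plus strand: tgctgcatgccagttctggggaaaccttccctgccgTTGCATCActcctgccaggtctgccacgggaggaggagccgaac
Pycr1, chr11:120643808-120643887, minus strand: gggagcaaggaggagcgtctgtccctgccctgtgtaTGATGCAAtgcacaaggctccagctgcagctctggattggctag
Asns, chr6:7693214-7693243, minus strand: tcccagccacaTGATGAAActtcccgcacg
Nupr1, chr7:126625562-126625591, minus strand: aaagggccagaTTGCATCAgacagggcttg
Vldlr, chr19:27216809-27216838, plus strand: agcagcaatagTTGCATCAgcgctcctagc
In Pycr1 and Asns the element lay on the gene's own strand, and in Chac1, Nupr1 and Vldlr on the opposite one. The 5 genes did not move together, as their values below show: Chac1 and Nupr1 fell with largazole in both genotypes, Vldlr fell in parental cells, Asns was lower in KD than in parental cells under largazole, and Pycr1 passed in no comparison.

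Most of these genes were lower after largazole in both genotypes, and many were lower still in KD than in parental cells under the drug. In KD cells 27 of 34 members fell with largazole (79.4%, against 23.1% of all 12517 tested genes) and 2 rose (24.6% of all genes rose), so that 85.3% passed, against 47.7% of all genes. In parental cells 22 fell (64.7%, against 22.6%) and 3 rose (26.8% of all genes), 73.5% in either direction against 49.3%. Between genotypes, 17 members were lower in KD than in parental cells under largazole (50%, against 9.67% of all genes) and 3 were higher (8.82%, against 8.12%), 58.8% in either direction against 17.8%. In DMSO 5 were lower (14.7%, against 4.01%) and 2 were higher (5.88%, against 7.11%), 20.6% in either direction against 11.1%. In the difference between the 2 largazole responses, 2 members passed, both with a more negative response in KD cells (5.88%, against 0.192%), and none with a more positive one (0.0399% of all genes), beside 0.232% of all genes in either direction. Passing means an adjusted p under 0.05 in edgeR's quasi-likelihood test over all tested genes, the test behind every adjusted p below, and log2 fold changes are given ± SE. The members were chosen with earlier results of these data known, so these shares describe the set and do not test it. The members were more abundant than the tested genes as a whole, with a median of 67.5 against 30.4 CPM, and the error of a fold change shrinks as counts rise. In bulk RNA, fewer cells that express a gene and less RNA per cell cannot be told apart.

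**Figure D1:**
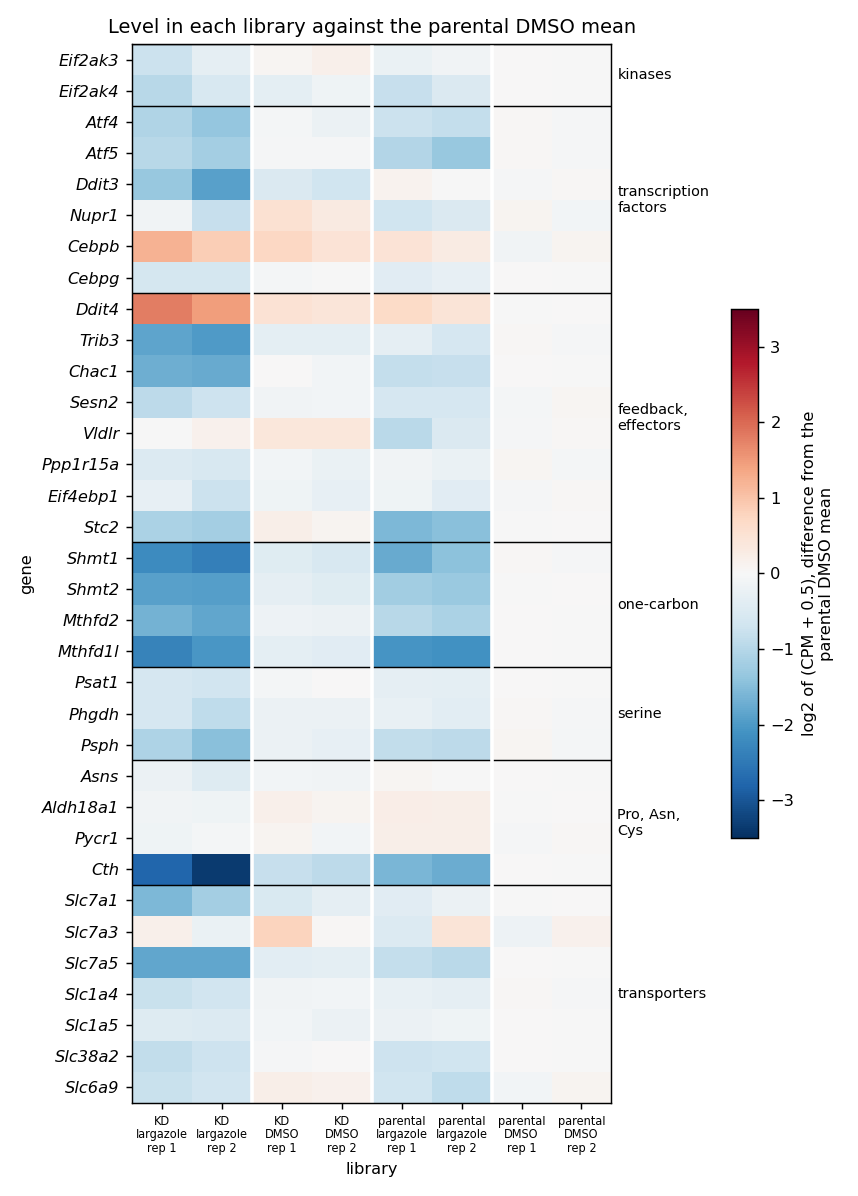
Level of each of the 34 genes in each of the 8 libraries, as the log2 of (CPM + 0.5) minus that of the parental DMSO mean (colour), with genes grouped by role and libraries by group. The 4 largazole libraries are blue for most genes and Cebpb and Ddit4 are red, with KD largazole the darkest for Trib3, Chac1, Slc7a5 and Cth.

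The median log2 fold change of the 34 members was -0.82 with largazole in KD cells (0.01 over all tested genes) and -0.52 in parental cells (0.03 over all). Between genotypes it was -0.33 under largazole (0.00 over all) and -0.12 in DMSO (0.00 over all). The 2 largazole comparisons have no library in common, and 21 members fell in both, which is 77.8% of the 27 in KD cells and 95.5% of the 22 in parental cells. The same overlap was not counted over all tested genes, so these shares have no background to be read against. Aldh18a1, Ddit3, Eif2ak3, Ppp1r15a, Slc1a5 and Slc7a1 passed as lower in KD cells and not as lower in parental cells. Of these, none passed in the test of the difference between responses with the fit described, whereas Ddit3, Aldh18a1 and Slc7a1 passed it with the replicate block (adjusted p = 0.0214, 0.0312 and 0.0275) and Ddit3 also with no filter (0.00697) and with DESeq2 (0.00960). Each knockdown comparison shares libraries with both largazole comparisons, so their values are set side by side below. Each library was also left out in turn, and "without either library" of a group below means that this was so for each of its 2 libraries. The number of members lower in KD than in parental cells in DMSO was 0 and 1 without parental DMSO replicate 1 and 2, 1 and 0 without KD DMSO replicate 1 and 2, 3 without either parental largazole library and 12 without either KD largazole library. The share of all genes that passed in either direction moved the same way, at 3.31% and 3.26%, 3.67% and 4.81%, 7.97% and 7.87%, and 23.4% and 23.6% in these fits in that order, against 11.1% with all libraries. The corresponding number under largazole fell to 9 on leaving out parental largazole replicate 1 and to 8 on leaving out replicate 2, with 6.45% and 6.36% of all genes passing in either direction, against 17.8% with all libraries. It was also 8 when the fit held only the libraries compared (7.72% of all genes), with adjusted p from 0.0828 to 0.229 for Aldh18a1, Asns, Atf4, Cebpg, Phgdh, Psat1, Shmt1, Slc1a4 and Slc1a5. The 3 members higher in KD cells under largazole numbered 2 in that fit, where Vldlr was lost (adjusted p = 0.0632). The 2 members higher in KD cells in DMSO numbered 0 without either parental DMSO library or KD DMSO replicate 1, and 1 without KD DMSO replicate 2 or either parental largazole library. The 3 that rose with largazole in parental cells numbered 1 without any parental or KD DMSO library, and the 2 that rose in KD cells numbered 1 without KD largazole replicate 1 or KD DMSO replicate 2.

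Of the kinases that start the response, both fell with largazole in KD cells. Eif2ak3 had 27.0 and 37.1 CPM in largazole-treated KD, 38.7 and 42.1 CPM in largazole-treated parental, 48.1 and 51.6 CPM in DMSO KD and 46.0 and 45.6 CPM in DMSO parental libraries. Both KD largazole libraries lay below the other 6, and parental largazole lay below both DMSO groups by a small step. Eif2ak3 fell in KD cells (-0.63 ± 0.14, adjusted p = 0.00418), whereas its change was -0.18 ± 0.14, adjusted p = 0.302 in parental cells. Eif2ak4 had 23.6 and 31.6 CPM in largazole-treated KD, 26.4 and 32.8 CPM in largazole-treated parental, 36.9 and 42.7 CPM in DMSO KD and 47.8 and 46.1 CPM in DMSO parental libraries. All 4 largazole libraries lay below all 4 DMSO ones, and in DMSO the KD libraries lay below the parental ones. With largazole, Eif2ak4 fell in KD (-0.52 ± 0.16, adjusted p = 0.0188, lost without KD DMSO replicate 2 at adjusted p = 0.139) and in parental cells (-0.67 ± 0.15, adjusted p = 0.00510, lost without parental largazole replicate 1 at adjusted p = 0.0553). Neither kinase passed between genotypes in DMSO or under largazole with all libraries, and Eif2ak3 passed under largazole without KD largazole replicate 2 at adjusted p = 0.00118.

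Among the transcription factors, Atf4, Atf5, Nupr1 and Cebpg fell with largazole in both genotypes, Ddit3 fell in KD cells, and Cebpb rose in both. Atf4 stood at 349 and 283 CPM in largazole-treated KD, 436 and 409 CPM in largazole-treated parental, 693 and 634 CPM in DMSO KD and 747 and 712 CPM in DMSO parental libraries. The 4 largazole libraries lay below the 4 DMSO libraries, and the KD ones lowest. Atf4 fell in KD (-1.07 ± 0.10, adjusted p = 2.29e-05) and in parental cells (-0.79 ± 0.10, adjusted p = 0.000157). Under largazole Atf4 was lower in KD than in parental cells (-0.42 ± 0.10, adjusted p = 0.0188), a call lost without either parental largazole library at adjusted p = 0.136 and 0.0724. Atf5, a relative of ATF4 linked to mitochondrial stress, had 85.7 and 73.6 CPM in largazole-treated KD, 82.9 and 67.8 CPM in largazole-treated parental, 165 and 166 CPM in DMSO KD and 173 and 166 CPM in DMSO parental libraries. The largazole libraries of the 2 genotypes overlapped. Its log2 fold change with largazole was -1.06 ± 0.11, adjusted p = 3.77e-05 in KD and -1.17 ± 0.11, adjusted p = 1.90e-05 in parental cells, and neither knockdown comparison passed. Exons of Atf5 overlap those of Nup62 and Il4i1 on the opposite strand.

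Ddit3 (chr10:127290774-127296288, plus strand, the first of 2 annotation entries of this symbol) encodes CHOP, a factor tied to cell death under prolonged stress. Its level was 18.7 and 12.5 CPM in largazole-treated KD, 51.8 and 46.7 CPM in largazole-treated parental, 33.3 and 28.9 CPM in DMSO KD and 46.3 and 48.7 CPM in DMSO parental libraries. All 4 KD libraries lay below all 4 parental ones, and the parental largazole and DMSO libraries overlapped. Ddit3 was lower in KD than in parental cells in DMSO (-0.61 ± 0.16, adjusted p = 0.0351) and under largazole (-1.67 ± 0.17, adjusted p = 0.000238). With largazole it fell in KD cells (-1.0 ± 0.17, adjusted p = 0.000918) and had a change of 0.05 ± 0.16, adjusted p = 0.803 in parental cells. The difference between these responses was -1.06 ± 0.23, adjusted p = 0.138, and it passed without either KD largazole library at adjusted p = 0.000234 and 0.0138. With all libraries it passed with no filter (adjusted p = 0.00697), DESeq2 (0.00960) and the replicate block (0.0214). The call in DMSO was lost without either parental largazole library, either KD DMSO library or either parental DMSO library at adjusted p = 0.0557 to 0.209. Exons of Ddit3 overlap those of Mars, the methionyl-tRNA synthetase gene on the opposite strand, whose levels were 181 and 179 CPM in largazole-treated KD, 232 and 214 CPM in largazole-treated parental, 234 and 242 CPM in DMSO KD and 266 and 269 CPM in DMSO parental libraries. The sources used here do not give the strand setting of the counting. The change of Mars between genotypes under largazole was -0.31 ± 0.07, adjusted p = 0.0156.

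Cebpb, a C/EBP factor that also acts in inflammation, had 211 and 163 CPM in largazole-treated KD, 126 and 109.9 CPM in largazole-treated parental, 150.0 and 126 CPM in DMSO KD and 83 and 97.1 CPM in DMSO parental libraries. Parental DMSO libraries were the lowest and KD largazole the highest. Exons of Tmem189 overlap those of Cebpb. It was higher in KD than in parental cells in DMSO (0.62 ± 0.14, adjusted p = 0.0191) and under largazole (0.67 ± 0.14, adjusted p = 0.00927). With largazole it rose in KD (0.44 ± 0.14, adjusted p = 0.0246) and in parental cells (0.39 ± 0.14, adjusted p = 0.0423). The call in DMSO was lost without KD DMSO replicate 1 or either parental DMSO library at adjusted p = 0.0710 to 0.197, that under largazole without parental largazole replicate 2 at adjusted p = 0.0872, that of the response in KD cells without KD largazole replicate 1 or KD DMSO replicate 2 at adjusted p = 0.0739 and 0.174 and that in parental cells without either parental largazole library, either KD DMSO library or either parental DMSO library at adjusted p = 0.0510 to 0.278. Nupr1, a small chromatin-associated stress protein, had 44.0 and 27.2 CPM in largazole-treated KD, 29.5 and 33.6 CPM in largazole-treated parental, 70.1 and 60.4 CPM in DMSO KD and 51.2 and 45.1 CPM in DMSO parental libraries. The KD DMSO libraries were the highest and the replicates of KD largazole stood apart. Nupr1 fell with largazole in KD (-0.88 ± 0.19, adjusted p = 0.00391) and in parental cells (-0.61 ± 0.19, adjusted p = 0.0247, lost without parental largazole replicate 1 or either parental DMSO library at adjusted p = 0.0509 to 0.136). Its change with the knockdown in DMSO was 0.44 ± 0.19, adjusted p = 0.179, and it passed without either KD largazole library at adjusted p = 0.00371 and 0.00458. Under largazole the change was 0.17 ± 0.20, adjusted p = 0.606, and passed without KD largazole replicate 2 at adjusted p = 0.00912. Cebpg, a dimer partner of ATF4, had smaller changes. It fell with largazole in KD (-0.58 ± 0.08, adjusted p = 0.000336) and in parental cells (-0.34 ± 0.08, adjusted p = 0.00650) and was lower in KD than in parental cells under largazole (-0.27 ± 0.08, adjusted p = 0.0486). The last was lost without either parental largazole library, either KD DMSO library or either parental DMSO library at adjusted p = 0.0859 to 0.361, and the fall in parental cells without parental largazole replicate 1 at adjusted p = 0.0691.

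The feedback and effector genes held the 2 members that passed in the difference between largazole responses in the fit reported. Trib3 (chr2:152337422-152344032, minus strand), a pseudokinase that restrains ATF4 signalling, had 19.8 and 17.9 CPM in largazole-treated KD, 57.9 and 47.6 CPM in largazole-treated parental, 57.3 and 56.4 CPM in DMSO KD and 73.6 and 70.6 CPM in DMSO parental libraries. The KD largazole libraries stood well below all others, and parental largazole replicate 1 reached the KD DMSO level. Trib3 fell in KD (-1.59 ± 0.12, adjusted p = 4.82e-06) and in parental cells (-0.45 ± 0.11, adjusted p = 0.00710), and the difference between these responses was -1.14 ± 0.16, adjusted p = 0.0266. Chac1 (chr2:119351229-119354381, plus strand), an enzyme that degrades glutathione and a strongly ATF4-dependent gene, had 21 and 20.2 CPM in largazole-treated KD, 39.0 and 39.7 CPM in largazole-treated parental, 69.9 and 65.0 CPM in DMSO KD and 70.1 and 68.5 CPM in DMSO parental libraries. In DMSO the genotypes overlapped, and under largazole both KD libraries lay below both parental ones. Its fall with largazole was -1.71 ± 0.10, adjusted p = 9.53e-07 in KD and -0.82 ± 0.09, adjusted p = 6.23e-05 in parental cells, with a difference of -0.89 ± 0.13, adjusted p = 0.0320. Chac1 was lower in KD than in parental cells under largazole (-0.93 ± 0.10, adjusted p = 0.000262), while its change in DMSO was -0.04 ± 0.09, adjusted p = 0.847. For Trib3 these values were -1.48 ± 0.12, adjusted p = 6.41e-05 under largazole and -0.34 ± 0.11, adjusted p = 0.0772 in DMSO, where it passed without either KD largazole library at adjusted p = 0.0133 and 0.0106. Both differences between responses were lost when 1 library was left out: that of Trib3 without either parental largazole library, either KD DMSO library or either parental DMSO library at adjusted p = 0.0587 to 0.298 and that of Chac1 without either parental largazole library, either KD DMSO library or either parental DMSO library at adjusted p = 0.105 to 0.346. The fall of Trib3 in parental cells was lost without parental largazole replicate 2 or parental DMSO replicate 1 at adjusted p = 0.0644 and 0.0502.

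Ddit4 went the other way. The gene (chr10:59949669-59951834, minus strand) encodes REDD1, an inhibitor of mTORC1 signalling that also responds to hypoxia and glucocorticoids, and had 115 and 92.0 CPM in largazole-treated KD, 52.5 and 45.8 CPM in largazole-treated parental, 47.1 and 44.2 CPM in DMSO KD and 32.7 and 33.5 CPM in DMSO parental libraries. Both KD largazole libraries stood far above the other 6, of which the parental DMSO pair was the lowest. Ddit4 rose with largazole in KD (1.18 ± 0.12, adjusted p = 4.05e-05) and in parental cells (0.57 ± 0.13, adjusted p = 0.00420). It was higher in KD than in parental cells in DMSO (0.46 ± 0.13, adjusted p = 0.0434) and under largazole (1.08 ± 0.12, adjusted p = 0.000430). The difference between its largazole responses, 0.61 ± 0.18, adjusted p = 0.273, passed without KD largazole replicate 2 at adjusted p = 0.00618, and the call in DMSO was lost without either parental largazole library, either KD DMSO library or either parental DMSO library at adjusted p = 0.0624 to 0.253. Sesn2, which encodes a leucine-binding inhibitor of mTORC1, had 26.6 and 30.4 CPM in largazole-treated KD, 33.6 and 33.6 CPM in largazole-treated parental, 46.2 and 47.1 CPM in DMSO KD and 48.1 and 52.6 CPM in DMSO parental libraries. All largazole libraries lay below all DMSO libraries. Its level fell in KD (-0.71 ± 0.11, adjusted p = 0.000395) and in parental cells (-0.58 ± 0.10, adjusted p = 0.00116), and its change between genotypes under largazole was -0.24 ± 0.11, adjusted p = 0.159, which passed without KD largazole replicate 2 at adjusted p = 0.0340.

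Stc2, a secreted glycoprotein, had 10.1 and 9.58 CPM in largazole-treated KD, 7.22 and 7.91 CPM in largazole-treated parental, 26.2 and 24.0 CPM in DMSO KD and 22.3 and 22.9 CPM in DMSO parental libraries. It was among the members that fell most, by -1.35 ± 0.13, adjusted p = 2.68e-05 in KD and -1.58 ± 0.14, adjusted p = 1.18e-05 in parental cells, with no overlap between largazole and DMSO libraries. Vldlr, a lipoprotein receptor that ATF4 raises, had 11.4 and 12.8 CPM in largazole-treated KD, 5.72 and 7.97 CPM in largazole-treated parental, 15.3 and 15.5 CPM in DMSO KD and 11.2 and 11.9 CPM in DMSO parental libraries. The KD libraries of each condition lay above the parental ones. Vldlr was higher in KD cells under largazole (0.82 ± 0.18, adjusted p = 0.0126, lost without parental largazole replicate 1 at adjusted p = 0.112) and fell with largazole in parental cells (-0.75 ± 0.18, adjusted p = 0.00673, lost without parental largazole replicate 1 at adjusted p = 0.0638), whereas its change in KD cells was -0.35 ± 0.17, adjusted p = 0.119. Ppp1r15a encodes GADD34, the subunit that directs dephosphorylation of eIF2alpha, and shares exonic sequence with Tulp2. It fell with largazole in KD cells (-0.36 ± 0.11, adjusted p = 0.0199, lost without KD DMSO replicate 1 at adjusted p = 0.122), and its change was -0.18 ± 0.11, adjusted p = 0.183 in parental cells. Between genotypes under largazole it had -0.34 ± 0.11, adjusted p = 0.0562, and passed without KD largazole replicate 1 at adjusted p = 0.0276. Eif4ebp1, a repressor of cap-dependent translation, passed in no comparison in the fit reported. With all libraries it passed with largazole with no filter (adjusted p = 0.0403 in KD and 0.0311 in parental cells). It also did so with the replicate block (0.0296 and 0.0310). Its log2 fold change with largazole was -0.29 ± 0.14, adjusted p = 0.130 in KD and -0.28 ± 0.14, adjusted p = 0.135 in parental cells, and it passed without KD largazole replicate 1 at adjusted p = 0.000131 in KD and without either KD largazole library at adjusted p = 0.00365 and 0.00291 in parental cells. It also passed as lower in KD cells in DMSO without either KD largazole library at adjusted p = 0.0480 and 0.0402 and under largazole without KD largazole replicate 1 at adjusted p = 0.00125.

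**Figure D2:**
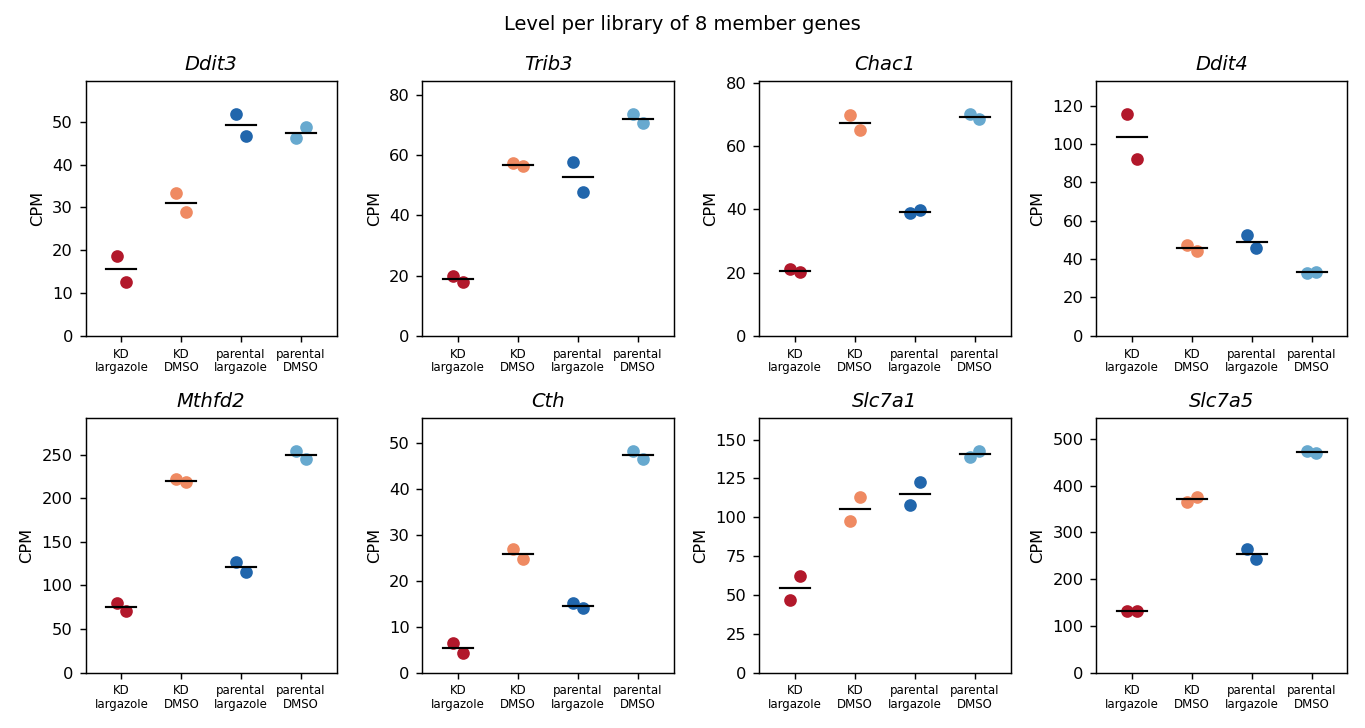
Level (CPM, linear axis from 0) of 8 of the genes in each library, by group, with a point per library and a line at the mean of the 2 libraries. Ddit3, Trib3, Chac1, Mthfd2, Cth, Slc7a1 and Slc7a5 are lowest in both KD largazole libraries, and Ddit4 is highest there.

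All 4 one-carbon enzymes fell with largazole in both genotypes. Mthfd1l, the mitochondrial enzyme that releases formate, had 28.5 and 35.5 CPM in largazole-treated KD, 35.0 and 33.3 CPM in largazole-treated parental, 116 and 113 CPM in DMSO KD and 148 and 146 CPM in DMSO parental libraries. The largazole libraries of both genotypes overlapped at a low level. Mthfd1l fell in KD (-1.83 ± 0.11, adjusted p = 1.26e-06) and in parental cells (-2.11 ± 0.11, adjusted p = 5.97e-07). Shmt1, the cytosolic serine hydroxymethyltransferase, had 4.99 and 4.38 CPM in largazole-treated KD, 6.95 and 8.83 CPM in largazole-treated parental, 18.3 and 16.8 CPM in DMSO KD and 25.8 and 24.1 CPM in DMSO parental libraries, and Smcr8 overlaps its exons on the opposite strand. In each condition its KD libraries lay below its parental ones. With largazole, Shmt1 fell in KD (-1.91 ± 0.17, adjusted p = 1.55e-05) and in parental cells (-1.66 ± 0.16, adjusted p = 2.27e-05). Shmt2, the mitochondrial form, which overlaps Ndufa4l2 on the opposite strand, had 222 and 215 CPM in largazole-treated KD, 356 and 332 CPM in largazole-treated parental, 659 and 612 CPM in DMSO KD and 812 and 835 CPM in DMSO parental libraries. The 4 groups formed separate steps, with KD largazole lowest and parental DMSO highest. Shmt2 fell in KD (-1.54 ± 0.08, adjusted p = 5.06e-07) and in parental cells (-1.26 ± 0.07, adjusted p = 1.20e-06). Mthfd2, the mitochondrial dehydrogenase of the pathway, had 79.7 and 70.3 CPM in largazole-treated KD, 127 and 115 CPM in largazole-treated parental, 222 and 219 CPM in DMSO KD and 254 and 245 CPM in DMSO parental libraries. It too formed separate steps in that order, with falls of -1.56 ± 0.09, adjusted p = 9.78e-07 in KD and -1.05 ± 0.09, adjusted p = 8.76e-06 in parental cells.

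Between genotypes under largazole, Shmt1 (-0.76 ± 0.18, adjusted p = 0.0183), Shmt2 (-0.65 ± 0.07, adjusted p = 0.000430) and Mthfd2 (-0.69 ± 0.09, adjusted p = 0.000710) were lower in KD cells, and Mthfd1l had -0.09 ± 0.11, adjusted p = 0.632. The call of Shmt1 was lost without parental largazole replicate 2 at adjusted p = 0.164. In DMSO, Shmt2 (-0.37 ± 0.07, adjusted p = 0.0102) and Mthfd1l (-0.37 ± 0.10, adjusted p = 0.0433) were lower in KD cells, and Shmt1 had -0.51 ± 0.15, adjusted p = 0.0558. Those 2 calls were lost without either KD DMSO library or either parental DMSO library at adjusted p = 0.0514 to 0.115 for Shmt2 and without either parental largazole library, either KD DMSO library or either parental DMSO library at adjusted p = 0.0790 to 0.253 for Mthfd1l. Shmt1 and Mthfd2 passed in DMSO without either KD largazole library at adjusted p = 0.00987 and 0.00940 and without either KD largazole library at adjusted p = 0.0332 and 0.0260. The difference between responses was -0.51 ± 0.12, adjusted p = 0.158 for Mthfd2, which passed without either KD largazole library at adjusted p = 0.00289 and 0.0265 and with the replicate block at 0.0359.

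The 3 enzymes that make serine from the glycolytic intermediate 3-phosphoglycerate fell with largazole in both genotypes. Phgdh, the first of them, had 380.0 and 311 CPM in largazole-treated KD, 479 and 438 CPM in largazole-treated parental, 493 and 497 CPM in DMSO KD and 588 and 554 CPM in DMSO parental libraries. The KD libraries lay below the parental ones in both conditions. Its level fell in KD (-0.52 ± 0.10, adjusted p = 0.00172) and in parental cells (-0.32 ± 0.10, adjusted p = 0.0213). A processed pseudogene, Phgdh-ps1, could share its reads. Psat1, the second, had 458 and 434 CPM in largazole-treated KD, 555 and 545 CPM in largazole-treated parental, 661 and 695 CPM in DMSO KD and 699 and 680.0 CPM in DMSO parental libraries. The DMSO libraries of the 2 genotypes overlapped, and KD largazole was lowest. Psat1 fell in KD (-0.61 ± 0.07, adjusted p = 7.36e-05) and in parental cells (-0.33 ± 0.07, adjusted p = 0.00327). Psph, the last, had 33.2 and 25.4 CPM in largazole-treated KD, 39.0 and 37.5 CPM in largazole-treated parental, 62.2 and 57.8 CPM in DMSO KD and 74.4 and 68.0 CPM in DMSO parental libraries. All 4 largazole libraries lay below all 4 DMSO ones. With largazole, Psph fell in KD (-1.04 ± 0.13, adjusted p = 0.000128) and in parental cells (-0.90 ± 0.13, adjusted p = 0.000281). Cct6a overlaps its exons on the opposite strand. Under largazole Phgdh (-0.41 ± 0.10, adjusted p = 0.0177) and Psat1 (-0.30 ± 0.07, adjusted p = 0.0146) were lower in KD than in parental cells, calls lost without either parental largazole library at adjusted p = 0.144 and 0.0567 for Phgdh and without either parental largazole library at adjusted p = 0.111 and 0.0937 for Psat1. Psph had -0.39 ± 0.13, adjusted p = 0.0671 and passed without KD largazole replicate 1 at adjusted p = 0.00138. In DMSO none of the 3 passed with all libraries; Phgdh passed without either KD largazole library at adjusted p = 0.0117 and 0.00739 and Psph without either KD largazole library at adjusted p = 0.0469 and 0.0387. The fall of Phgdh in parental cells was lost without parental largazole replicate 2 or either parental DMSO library at adjusted p = 0.0504 to 0.116.

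Asns, the asparagine synthetase and a standard ATF4 target, passed in 1 of the 4 comparisons between 2 groups. It had 269 and 225 CPM in largazole-treated KD, 323 and 308 CPM in largazole-treated parental, 290.4 and 282 CPM in DMSO KD and 314 and 303 CPM in DMSO parental libraries. The largazole and DMSO libraries of parental cells overlapped. Its change with largazole was -0.21 ± 0.09, adjusted p = 0.0732 in KD, where it passed without KD largazole replicate 1 at adjusted p = 0.000264, and 0.03 ± 0.09, adjusted p = 0.787 in parental cells. Under largazole it was lower in KD than in parental cells (-0.36 ± 0.09, adjusted p = 0.0224), a call lost without either parental largazole library or either parental DMSO library at adjusted p = 0.0560 to 0.153. Aldh18a1, which starts proline synthesis from glutamate, had 202 and 202 CPM in largazole-treated KD, 259 and 255 CPM in largazole-treated parental, 249 and 237 CPM in DMSO KD and 221 and 222.9 CPM in DMSO parental libraries. Parental largazole was highest and KD largazole lowest. It fell with largazole in KD (-0.27 ± 0.07, adjusted p = 0.00859) and rose in parental cells (0.21 ± 0.07, adjusted p = 0.0273). The rise was lost without either parental largazole library, either KD DMSO library or either parental DMSO library at adjusted p = 0.0535 to 0.189 and the fall without KD DMSO replicate 1 at adjusted p = 0.0733. The difference between them was -0.48 ± 0.10, adjusted p = 0.110, and it passed without either KD largazole library at adjusted p = 0.00475 and 0.00724. Aldh18a1 was lower in KD than in parental cells under largazole (-0.35 ± 0.07, adjusted p = 0.00714), lost without either parental largazole library at adjusted p = 0.0751 and 0.0704. Pycr1, which completes proline synthesis, lay between 9.2 and 11.9 CPM in all 8 libraries and passed in no comparison.

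Cth (chr3:157894248-157925077, minus strand) encodes cystathionine gamma-lyase, which makes cysteine by transsulfuration. It had 6.55 and 4.18 CPM in largazole-treated KD, 15.3 and 14.0 CPM in largazole-treated parental, 27.0 and 24.7 CPM in DMSO KD and 48.3 and 46.6 CPM in DMSO parental libraries. The groups formed 4 separate steps, and in each condition the KD libraries lay below the parental ones. Cth had the largest fall of the 34 genes with largazole in KD cells (-2.28 ± 0.18, adjusted p = 6.81e-06), and fell in parental cells too (-1.70 ± 0.16, adjusted p = 1.99e-05). It was lower in KD than in parental cells in DMSO (-0.88 ± 0.15, adjusted p = 0.00524) and under largazole (-1.46 ± 0.19, adjusted p = 0.000782). The difference between its largazole responses was -0.58 ± 0.24, adjusted p = 0.521, and it passed without KD largazole replicate 1 at adjusted p = 0.0232. The call in DMSO was lost without KD DMSO replicate 2 or parental DMSO replicate 1 at adjusted p = 0.0543 and 0.0604.

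**Figure D3:**
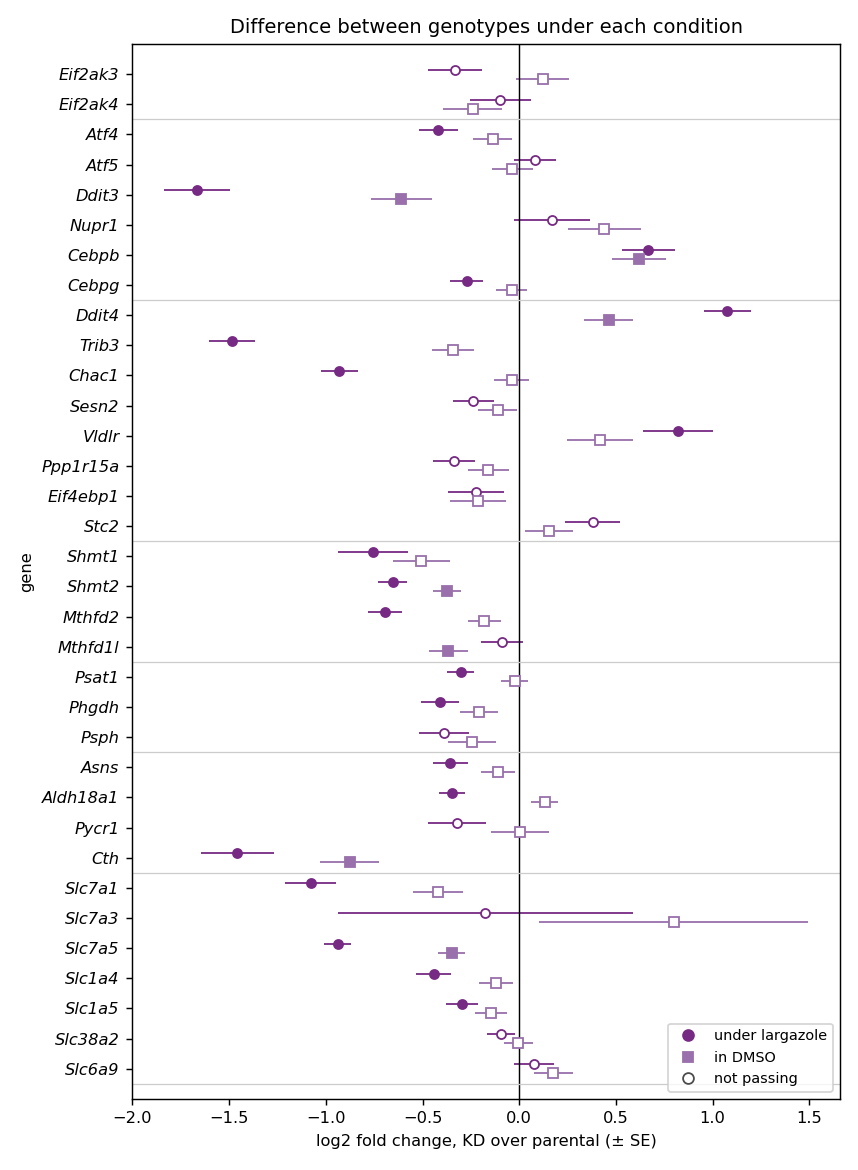
Log2 fold change (± SE) of KD over parental cells for each gene under largazole (dark circles) and in DMSO (light squares), with open symbols where the change did not pass. Ddit3, Trib3, Cth and Slc7a1 lie beyond -1 under largazole, where Ddit4 lies beyond 1, and in DMSO no gene that passed does.

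Of the 7 transporters, 6 fell with largazole in KD and 4 in parental cells, and none rose. Slc7a5 (chr8:121881150-121907694, minus strand) encodes LAT1, which imports large neutral amino acids such as leucine. It had 133 and 132 CPM in largazole-treated KD, 264 and 244 CPM in largazole-treated parental, 366 and 375 CPM in DMSO KD and 474 and 469 CPM in DMSO parental libraries. The groups formed separate steps, with KD largazole lowest. Its level fell in KD (-1.48 ± 0.07, adjusted p = 5.06e-07) and in parental cells (-0.89 ± 0.07, adjusted p = 6.94e-06). It was lower in KD than in parental cells in DMSO (-0.35 ± 0.07, adjusted p = 0.0113, lost without either KD DMSO library or either parental DMSO library at adjusted p = 0.0729 to 0.126) and under largazole (-0.94 ± 0.07, adjusted p = 5.17e-05). The difference between responses was -0.59 ± 0.10, adjusted p = 0.0567, and it passed without either KD largazole library at adjusted p = 0.00114 and 0.00184. With all libraries it passed with no filter (adjusted p = 0.0128), DESeq2 (0.00514) and the replicate block (0.0130). Slc7a1, the cationic amino acid transporter that imports arginine and lysine, had 46.9 and 62.0 CPM in largazole-treated KD, 108 and 123 CPM in largazole-treated parental, 97.7 and 113 CPM in DMSO KD and 139 and 143 CPM in DMSO parental libraries. The KD largazole libraries lay below the other 6. It fell with largazole in KD cells (-0.95 ± 0.13, adjusted p = 0.000264), its change in parental cells was -0.29 ± 0.13, adjusted p = 0.0840, and it was lower in KD than in parental cells under largazole (-1.08 ± 0.13, adjusted p = 0.000598). In DMSO its change was -0.42 ± 0.13, adjusted p = 0.0651. With a library left out, Slc7a1 passed in DMSO without either KD largazole library at adjusted p = 0.000821 and 0.000678, in parental cells without either KD largazole library at adjusted p = 0.00367 and 0.00284 and in the difference between responses without either KD largazole library at adjusted p = 0.0488 and 0.00195.

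Slc38a2, or SNAT2, a transporter of small neutral amino acids, had 384 and 427 CPM in largazole-treated KD, 428 and 438 CPM in largazole-treated parental, 687 and 718 CPM in DMSO KD and 705 and 704 CPM in DMSO parental libraries. In DMSO the genotypes overlapped, and under largazole the KD libraries lay just below the parental ones. Slc38a2 fell in KD (-0.79 ± 0.07, adjusted p = 2.12e-05) and in parental cells (-0.70 ± 0.07, adjusted p = 4.60e-05). Its change between genotypes was -0.09 ± 0.07, adjusted p = 0.432 under largazole, where it passed without KD largazole replicate 2 at adjusted p = 0.0408, and 0.00 ± 0.07, adjusted p = 0.993 in DMSO. Slc6a9, the glycine transporter GlyT1, had 54.3 and 58.2 CPM in largazole-treated KD, 56.9 and 49.8 CPM in largazole-treated parental, 107 and 104 CPM in DMSO KD and 87.3 and 99.5 CPM in DMSO parental libraries. All 4 largazole libraries lay below all 4 DMSO ones. B4galt2 and Ccdc24 overlap its exons. With largazole, Slc6a9 fell in KD (-0.91 ± 0.10, adjusted p = 6.74e-05) and in parental cells (-0.81 ± 0.10, adjusted p = 0.000142), and passed in neither knockdown comparison. Slc1a4, which carries alanine, serine and cysteine, had 39.8 and 43.0 CPM in largazole-treated KD, 57.4 and 55.1 CPM in largazole-treated parental, 62.9 and 64.3 CPM in DMSO KD and 70.8 and 67.4 CPM in DMSO parental libraries. The KD largazole libraries were lowest. Its level fell in KD (-0.62 ± 0.09, adjusted p = 0.000373) and in parental cells (-0.30 ± 0.09, adjusted p = 0.0196, lost without either parental largazole library or either parental DMSO library at adjusted p = 0.0637 to 0.124), and was lower in KD cells under largazole (-0.44 ± 0.09, adjusted p = 0.00917, lost without either parental largazole library at adjusted p = 0.0814 and 0.0612).

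Slc1a5, the glutamine transporter ASCT2, fell in KD cells (-0.33 ± 0.08, adjusted p = 0.00819, lost without KD DMSO replicate 1 at adjusted p = 0.0765), and its change in parental cells was -0.18 ± 0.08, adjusted p = 0.0948, passing without either KD largazole library at adjusted p = 0.0345 and 0.0255. It was lower in KD cells under largazole (-0.30 ± 0.08, adjusted p = 0.0325), a call lost without either parental largazole library, either KD DMSO library or either parental DMSO library at adjusted p = 0.0552 to 0.226. Slc7a3, another cationic transporter, was near the detection limit, at 0.204 to 1.19 CPM in the 8 libraries, and passed in no comparison.

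**Figure D4:**
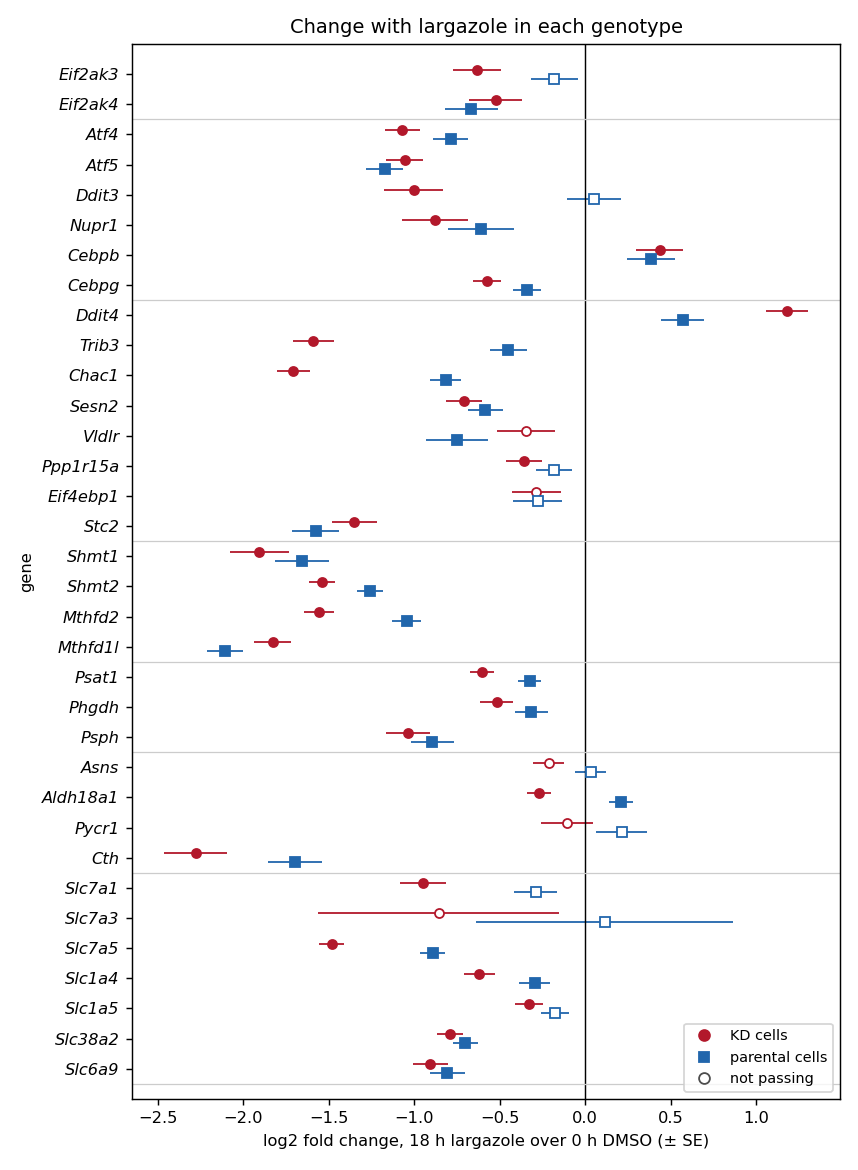
Log2 fold change (± SE) of 18 h largazole over 0 h DMSO for each gene in KD cells (red circles) and parental cells (blue squares), with open symbols where the change did not pass. The 4 one-carbon enzymes lie beyond -1 in both genotypes, and Cebpb and Ddit4 rose in both.

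In the difference between the largazole responses, 27 of the 34 members had a negative value, against 6902 of all 12517 tested genes. The median of the members was -0.25 (-0.03 over all tested genes). The number that passed as negative was 2 with all libraries, 13 without KD largazole replicate 1, 8 without KD largazole replicate 2 and 0 without any other single library. The share of all tested genes that passed in either direction moved with it, at 0.232% with all libraries, 3.89% and 4.26% without KD largazole replicate 1 and 2, and 0.0156% to 0.101% without any other single library. Under alternatives that kept all libraries, 4 members passed with no filter (0.689% of all genes), 4 with DESeq2 (0.663%) and 7 with the replicate block (0.951%). Beside those given above, Asns passed without KD largazole replicate 1 at adjusted p = 0.0190, Atf4 without KD largazole replicate 1 at adjusted p = 0.0142, Eif2ak3 without KD largazole replicate 2 at adjusted p = 0.0135, Nupr1 without KD largazole replicate 1 at adjusted p = 0.0371, Phgdh without KD largazole replicate 1 at adjusted p = 0.0340 and Psat1 without KD largazole replicate 1 at adjusted p = 0.0383. KD largazole was the group whose replicates differed most.

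A further 41 genes of the same pathway, listed apart from the members, were compared in the same fit, and 39 had enough counts. They too were chosen with earlier results of these data known, so their shares are a description. With largazole 17 of the 39 fell (43.6%, against 23.1% of all genes) and 4 rose (10.3%, against 24.6%) in KD cells. In parental cells 15 fell (38.5%, against 22.6%) and 3 rose (7.69%, against 26.8%). Between genotypes 12 were lower (30.8%, against 9.67%) and 2 higher (5.13%, against 8.12%) in KD cells under largazole. In DMSO 3 were lower and 2 higher, 12.8% in either direction against 11.1% of all genes, a share near the background. Their median log2 fold change was -0.19 with largazole in KD cells, -0.15 in parental cells, -0.19 between genotypes under largazole and -0.06 in DMSO.

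Gdf15, a stress-induced secreted factor, had 3.20 and 4.65 CPM in largazole-treated KD, 8.85 and 8.96 CPM in largazole-treated parental, 19.6 and 19.0 CPM in DMSO KD and 21.1 and 19.0 CPM in DMSO parental libraries. The KD largazole libraries were lowest, and in DMSO the genotypes overlapped. Gdf15 fell in KD (-2.29 ± 0.18, adjusted p = 7.21e-06) and in parental cells (-1.17 ± 0.17, adjusted p = 0.000288), and was lower in KD cells under largazole (-1.17 ± 0.19, adjusted p = 0.00292). The difference between responses was -1.12 ± 0.25, adjusted p = 0.141. It passed without either KD largazole library, at -0.88 and -1.41, and with all libraries with no filter (-1.09, adjusted p = 0.0370). Slc7a11, the cystine importer, had 7.64 and 8.02 CPM in largazole-treated KD, 13.8 and 16.7 CPM in largazole-treated parental, 37.1 and 37.7 CPM in DMSO KD and 28.5 and 32.4 CPM in DMSO parental libraries. The KD largazole libraries were lowest, although in DMSO the KD libraries lay above the parental ones. With largazole, Slc7a11 fell in KD (-2.25 ± 0.14, adjusted p = 1.73e-06) and in parental cells (-1.0 ± 0.13, adjusted p = 0.000194), and the difference between the responses was -1.26 ± 0.19, adjusted p = 0.0394, lost without either parental largazole library, either KD DMSO library or either parental DMSO library at adjusted p = 0.101 to 0.375. It was also lost with library totals as the scaling (adjusted p = 0.0552) and with limma-voom (0.0559). It was lower in KD cells under largazole (-0.96 ± 0.15, adjusted p = 0.00202), while its change in DMSO was 0.30 ± 0.13, adjusted p = 0.178. Pck2, mitochondrial phosphoenolpyruvate carboxykinase, fell in KD (-1.51 ± 0.08, adjusted p = 5.83e-07) and in parental cells (-1.21 ± 0.08, adjusted p = 1.67e-06).

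Atf3, a transcription factor downstream of ATF4, was lower in KD than in parental cells under largazole (-1.48 ± 0.26, adjusted p = 0.00403), at 2.34 and 1.69 CPM in KD and 6.27 and 4.88 CPM in parental largazole libraries. In DMSO its change was -0.72 ± 0.23, adjusted p = 0.0768. It passed without either KD largazole library, at -0.72 and -0.73, and with all libraries with the replicate block (-0.73, adjusted p = 0.0450). Eif2ak2 encodes PKR, the double-stranded RNA sensor among the eIF2alpha kinases and an interferon-stimulated gene. It had 74.0 and 98.2 CPM in largazole-treated KD, 37.7 and 44.9 CPM in largazole-treated parental, 87.3 and 76.0 CPM in DMSO KD and 31.1 and 33.3 CPM in DMSO parental libraries. All 4 KD libraries lay above all 4 parental ones, and it was higher in KD cells in DMSO (1.34 ± 0.15, adjusted p = 0.000388) and under largazole (1.06 ± 0.15, adjusted p = 0.00118). In DMSO Ero1l, an oxidase of endoplasmic reticulum folding, was lower (-0.57 ± 0.08, adjusted p = 0.00198). Eif2b3, a subunit of the exchange factor for eIF2, was lower as well (-0.55 ± 0.11, adjusted p = 0.0132). Klhl24, a ubiquitin ligase adaptor, was higher (0.63 ± 0.15, adjusted p = 0.0257). Both calls were lost without either KD DMSO library or either parental DMSO library, at -0.61 to -0.50 for Eif2b3 and 0.59 to 0.66 for Klhl24. Under largazole, too, Eif2b3 passed as lower and Klhl24 as higher in KD than in parental cells. Klhl24 also rose with largazole in KD cells. With only the libraries compared these further calls were lost (adjusted p = 0.132 for Eif2b3, 0.0509 and 0.0709 for Klhl24). That of Eif2b3 was also lost without any single library other than KD largazole replicate 1, at -0.42 to -0.28. That of Klhl24 between genotypes was lost without parental largazole replicate 1, at 0.58. The rise of Klhl24 in KD cells was lost without KD largazole replicate 2 or any DMSO library, at 0.24 to 0.48.

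Cbs, which feeds transsulfuration upstream of Cth, was at or near 0 in DMSO. It had 105 counts over the 2 KD largazole libraries against 0 in KD DMSO, at least 18.4-fold higher against a floor of 3 counts per library. In parental cells it had 131 counts with largazole against 2 in DMSO, a ratio of 62.2 (exact 95% binomial interval 16.9 to 519, counting error only). Prodh, which starts proline breakdown, rose with largazole in both genotypes from low counts. Its change in parental cells was 1.12 ± 0.36, adjusted p = 0.0250. That call was lost without parental largazole replicate 2 or either parental DMSO library, at 0.697 to 1.198, and with DESeq2 (adjusted p = 0.0647). In KD cells Prodh had 2.104 and 2.023 CPM with largazole against 0.527 and 1.031 CPM in DMSO. The call in KD cells was lost without KD DMSO replicate 1, at 0.988.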

How the data were processed

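Polyadenylated RNA was measured in 8 libraries, 2 in each of 4 groups, with a directional kit after poly(A) selection, per the labels' protocols. The authors deposited estimated counts for each gene symbol, without normalization as far as the values show. Their genome build was mm10, per the submitters' processing notes; for the aligner, the counter, its strand setting and its annotation nothing is stated in the labels. Counts were rounded to whole numbers. Symbols of 27 genes had been turned into dates, none of them a member.

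Genes were tested with the two-sided quasi-likelihood F test of edgeR 4.0.16. The fit used TMM scaling, the filterByExpr filter (count at least 10, total at least 15) and a mean for each of the 4 groups over all 8 libraries. P-values were adjusted over 12517 genes by the Benjamini-Hochberg method, with a threshold of 0.05. The SE of a log2 fold change was taken from its size and the F statistic. The scripts were tested on simulated data. The members and lists were chosen with earlier results of these data known. Every member was to be named, with its value in each library where it passed in at least 1 comparison with a change of at least 1.5-fold (25 members). Of the other pathway genes, up to 4 per comparison were named, those with the largest changes that passed; Mars was added for its overlap with Ddit3.

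Alternatives were other scalings (RLE, upper quartile, or library totals alone), no filter, a stricter filter (count at least 30 with at least 1 CPM), DESeq2 1.42.0, voom with limma 3.58.1, fits of the compared libraries alone, a block for the replicate number, removal of Rn45s, and removal of single libraries. The lone library left in a group was then taken to vary like those of the other groups. Coordinates are on GRCm38, the assembly of mm10, from GENCODE M21, and promoter sequences are from RefSeq (GRCm38.p6). Software was R 4.3.3, Python 3.11.15 and matplotlib 3.10.9. Libraries held at least 13020492 counts, and Slc7a3 had the fewest among the members.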

Additional observations from a re-analysis of the deposited data

Results flagged for a closer look

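In 3 genes of the pathway the largazole response differed between KD and parental cells in the test of the difference itself (KD response minus parental response, edgeR's quasi-likelihood test over 12517 genes). Trib3 had a difference of -1.14 ± 0.16, adjusted p = 0.0266, Chac1 of -0.89 ± 0.13, adjusted p = 0.0320 and Slc7a11 of -1.26 ± 0.19, adjusted p = 0.0394. In each, both replicates of KD largazole lay below both replicates of parental largazole. Each of the 3 calls was lost when any 1 library of parental largazole, KD DMSO or parental DMSO was left out (adjusted p = 0.0587 to 0.298 for Trib3, 0.105 to 0.346 for Chac1 and 0.101 to 0.375 for Slc7a11). That of Slc7a11 was also lost with library totals as the scaling (adjusted p = 0.0552) and with limma-voom (0.0559). Groups of 2 libraries are too small to look for single outlying samples.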

How the results depend on the processing

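Over the alternatives run, no called change of a member turned its direction: of 1492 repeats of the 83 calls, 1357 kept the call and 135 missed the threshold. Counts of members that passed stayed within 1.5 times of the count with all libraries in 136 of 178 repeats. In DMSO, members higher in KD numbered 2 with all libraries, 1 with limma-voom, 4 with only the libraries compared and 0 to 3 with a library left out. Those lower numbered 5, 12 with only the libraries compared (27.9% of all genes passing) and 0 to 12 with a library left out. Under largazole, those lower numbered 17, 8 with only the libraries compared and 8 to 20 with a library left out, and those higher 3 and 2 to 4. With largazole in parental cells, members higher numbered 3, and 1 to 3 with a library left out, and those lower 22 and 17 to 25. In KD cells, members higher numbered 2, 1 with only the libraries compared and 1 to 2 with a library left out, and those lower 27 and 24 to 29. In the difference between responses, those lower numbered 2, 4 with no filter, 4 with DESeq2 and 0 to 13 with a library left out, and those higher 0 and 0 to 1. Those lower with largazole in KD cells numbered 23 with only the libraries compared (36.5% of all genes passing, against 47.7%). Eif2ak4, Slc1a5, Ppp1r15a and Aldh18a1 missed the threshold there (adjusted p = 0.0525 to 0.0859). With a library left out, the share of all genes passing with largazole moved in both genotypes. It rose without either KD largazole library and fell without any other single library, so the shifts were not confined to the members. The cause of these shifts was not tested. Cebpg under largazole between genotypes (adjusted p = 0.0505 to 0.229 in 6 settings other than leaving out a library), Slc1a5 likewise (no filter 0.0565, DESeq2 0.0552), Mthfd1l and Ddit4 in DMSO (library totals 0.0658 and limma-voom 0.0622), the rise of Aldh18a1, and the falls of Phgdh and Slc1a4 in parental cells and of Ppp1r15a in KD cells also missed the threshold under another scaling, filter or tool. Members that passed with all libraries under no filter, DESeq2, limma-voom, library totals or the replicate block, but not in the fit reported, were Shmt1, Slc7a1 and Trib3 in DMSO, Ppp1r15a and Psph between genotypes under largazole, Eif4ebp1 and Slc7a1 with largazole in parental cells, Asns and Eif4ebp1 with largazole in KD cells, and Ddit3, Slc7a5, Aldh18a1, Mthfd2 and Slc7a1 in the difference between responses. Upper-quartile scaling moved the median of all genes with largazole to 0.11 in parental and 0.09 in KD cells.

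With the replicate block, members lower in KD in DMSO numbered 8, and those lower in the difference between responses 7, while the share of all genes that passed in either direction was 16.4% (11.1% without the block) and 0.951% (0.232%). Nothing says that a replicate number marks a shared culture or day. Replicate differences correlated across genes at 0.273 to 0.355 among KD DMSO, KD largazole and parental largazole. They correlated at 0.146 between the parental groups, and at 0.00 and -0.01 between parental DMSO and the KD groups. Whether the replicate number had an effect of its own was not tested, and the fit reported has no block. The difference between responses could not be fitted with only the libraries compared, since it uses all 8.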
